A study of Canis lupus familiaris with 37 samples.

Results

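FLT3 (ENSCAFG00000006716) was followed as 1 of the 32704 canine Ensembl genes in the count data of 37 RNA-seq samples, and its name was taken from the study. The samples comprised 4 non-neoplastic lymph nodes used as controls, 12 multicentric B-cell lymphomas, 4 lymphomas grouped as probable T-cell lymphomas, and 5 lymphoid cell lines with 17 samples between them. The probable T-cell group held 3 samples titled intestinal lymphoma and 1 titled T-cell lymphoma. Of the lines, CLBL-1 (n = 5), CLBL-1M (n = 5) and GL-1 (n = 1) were derived from B cells, and OSW (n = 4) and CL-1 (n = 2) from T cells. The lymphomas came from 16 dogs with naturally occurring disease, and neither age nor treatment of the dogs was given in the labels. The lines were grown in culture without any agent named in the labels, and CLBL-1M was made from a tumor that CLBL-1 cells had formed in a mouse. Replicates within a line stand for that line and not for a tumor type, so their spread does not stand for the spread between dogs.

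FLT3 encodes a receptor tyrosine kinase of the class III family, which also holds KIT, CSF1R and the PDGF receptors. Its ligand FLT3LG brings receptor molecules together, and the kinase then signals through the RAS-MAPK and PI3K-AKT branches and, in mutated forms, strongly through STAT5. In normal blood formation FLT3 marks early lymphoid and myeloid progenitors. In lymph nodes it is best known from dendritic cells, whereas most mature B and T cells carry little of it. Activating FLT3 mutations are a hallmark of many acute myeloid leukemias, and some acute leukemias of early lymphoid cells transcribe the gene at high levels.

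Levels are given as CPM, the reads counted on FLT3 per 1000000 reads of the sample on the 15162 genes kept by a filter on low counts. Library sizes were adjusted by the TMM method. The reads on all genes numbered 1962722 to 4863730 in a sample (median 2942360). The smallest level taken as visible, 3 reads, was worth 0.602 to 1.66 CPM depending on the sample. Intervals given for a single sample are exact 95% Poisson intervals and cover counting error only. Titles and data names swap CLBL-1 with CLBL-1M, so each comparison involving these lines was also made with the names exchanged. Control replicate 4 is a control by its title, but its source name is that of a T-cell line. The classification entry of the labels, mostly by flow cytometry, also conflicts with titles and was not used for grouping. Each control is a lymphoma or derived from one by that entry, while the T-cell lymphoma and replicates 6 and 10 of the B-cell lymphomas are non-neoplastic by it. Reads that overlapped several genes made up a share that separated the cell lines (1.29 to 1.87%) and control replicate 4 (2.78%) from the lymphomas and the other controls (0.333 to 0.959%). The separation was treated as an inferred batch that no label names. Tissue and cell type labels were not checked against marker genes, because no identifier in the count data could be paired with a marker symbol here.

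FLT3 was read in every one of the 37 samples, at levels that spanned from 0.278 CPM in a B-cell lymphoma to 443 CPM in GL-1. The study singled the gene out on these samples for being higher than controls in GL-1 and lower in all other groups, so its levels and its fold-changes against controls are a description, without a test. Among the 4 controls FLT3 stood at 39.0, 29.4, 35.1 and 27.3 CPM in replicates 1 to 4 (mean 32.7 ± 5.30 (SD, n = 4)), from 59 to 115 reads per node. The controls lay close together, and control replicate 4, whose source name disagrees with its title, had the lowest level of them. In the single GL-1 sample, 1415 reads fell on FLT3, which gave 443 CPM with an interval of 420 to 467. GL-1 exceeded the control mean 13.6 times and the highest control 11.4 times. No replicate of GL-1 was available to show how far this level varies between cultures.

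**Figure D1:**
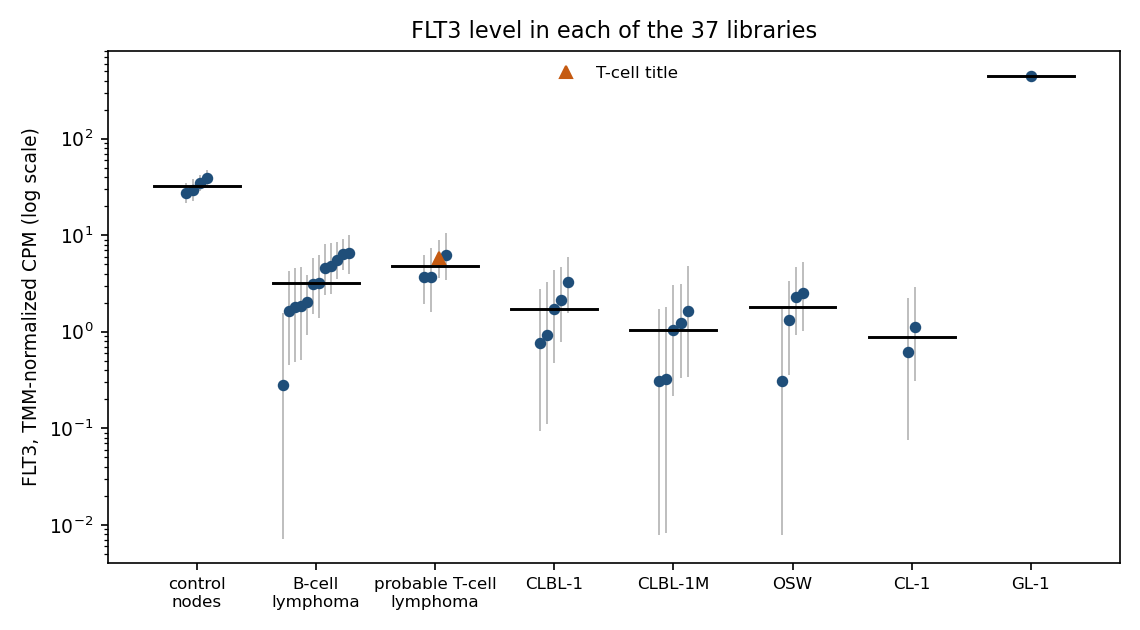
FLT3 level of each of the 37 samples in TMM-normalized CPM on a log scale, by group. Points are samples with exact 95% Poisson intervals in grey, black lines are group medians and the triangle is the sample titled T-cell lymphoma. GL-1 at 443 CPM lies above the controls (27.3 to 39.0 CPM), and every other sample lies at 6.49 CPM or lower.

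FLT3 lay below every control in all 12 B-cell lymphomas and all 4 probable T-cell lymphomas. The B-cell lymphomas ranged from 0.278 to 6.49 CPM with a median of 3.17 CPM (mean 3.48 ± 2.06 (SD, n = 12)). Their lowest sample, replicate 10, held 1 read on FLT3 out of 3568388, with an interval of 0.00704 to 1.55 CPM. The upper end was shared by replicates 6 and 7, with 20 and 32 reads and levels of 6.49 and 6.43 CPM. Replicates 6 and 10, the highest and the lowest sample, are non-neoplastic by the classification entry, and no fit was made without them.

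The intestinal lymphomas had 3.67, 3.70 and 6.22 CPM of FLT3, and the sample titled T-cell lymphoma had 5.83 CPM. The T-cell lymphoma thus fell inside the range of the intestinal lymphomas, and all 4 samples lay inside the range of the B-cell lymphomas. The mean of the probable T-cell group was 4.86 ± 1.36 CPM (SD, n = 4), which the control mean exceeded 6.73 times. The control mean exceeded the mean of the B-cell lymphomas 9.39 times. In such bulk samples, fewer cells of a type that transcribes FLT3 and less FLT3 RNA per cell cannot be told apart.

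In the 4 lines other than GL-1, FLT3 was close to the limit of detection. The 16 samples of these lines held 61 reads on FLT3 in total, between 1 and 10 reads each, with levels of 0.309 to 3.26 CPM and a median of 1.18 CPM. Of the 16 samples, 8 had 3 reads or fewer and lay at or under the smallest level taken as visible.

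CLBL-1 samples had 1.72, 2.13, 0.916, 0.771 and 3.26 CPM in replicates 1 to 5 (mean 1.76 ± 1.01 (SD, n = 5)). CLBL-1M samples had 1.23, 1.66, 0.309, 1.04 and 0.321 CPM (mean 0.910 ± 0.588 (SD, n = 5)). The ranges of these related lines overlapped, with 2 CLBL-1M samples below the lowest CLBL-1 sample. OSW samples had 0.309, 2.54, 1.32 and 2.27 CPM (mean 1.61 ± 1.01 (SD, n = 4)). CL-1 samples had 0.621 and 1.13 CPM (mean 0.875 ± 0.360 (SD, n = 2)). Both CL-1 samples lay inside the range of OSW, and the T-cell lines and the CLBL lines covered the same low range. At least 1 read was counted in every sample. A level this low does not show that a line lacks FLT3 transcripts, and counts of 3 reads or fewer do not show that it has them.

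Ordered by mean level, GL-1 came first, followed by the controls, the probable T-cell lymphomas, the B-cell lymphomas and then CLBL-1, OSW, CLBL-1M and CL-1. Ranges of neighbors did not overlap between GL-1 and the controls and between the controls and the probable T-cell lymphomas. All other neighbors in the order overlapped. The lowest control stood 4.21 times above the highest of the 32 lymphoma and other line samples, and 7 of the 16 lymphomas lay at or under the highest sample of the 4 low lines.

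Relative to controls, the log2 fold-change of FLT3 in the edgeR fit was 3.76 in GL-1 (standard error 0.627, n = 1 against 4). This standard error rests on the spread within the other groups, because GL-1 has no replicate. The log2 fold-changes of the lymphomas were -3.20 for B-cell lymphomas (standard error 0.365, n = 12) and -2.74 for probable T-cell lymphomas (standard error 0.517, n = 4). Of the T-cell lines, OSW had -4.33 (standard error 0.574) and CL-1 had -5.15 (standard error 0.824). CLBL-1 had -4.15 (standard error 0.523) and CLBL-1M had -5.18 (standard error 0.567). Every group other than GL-1 thus lay on the low side, with lower values in the lines than in the lymphomas. The median over all 15162 genes kept by the filter was between -0.23 and 0.09 in these comparisons, where the TMM scaling keeps it near 0.

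Fold-changes were also taken on each side of the inferred batch. Cell lines were set against control replicate 4 alone, and lymphomas against control replicates 1 to 3. The share of reads on several genes was higher in control replicate 4 (2.78%) than in any line (1.29 to 1.87%). That share thus does not show that this control and the lines form 1 batch. The shared references leave the order among lines, and among lymphomas, nearly fixed. Lines and lymphomas then have different references, so an effect of the batch was not tested. The log2 fold-change of FLT3 was then 3.90 in GL-1, -3.39 in B-cell lymphomas and -2.92 in probable T-cell lymphomas. The T-cell lines OSW and CL-1 had -4.18 and -4.98, and CLBL-1 and CLBL-1M had -4.02 and -5.10. The level of GL-1 was 16.2 times that of control replicate 4.

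**Figure D2:**
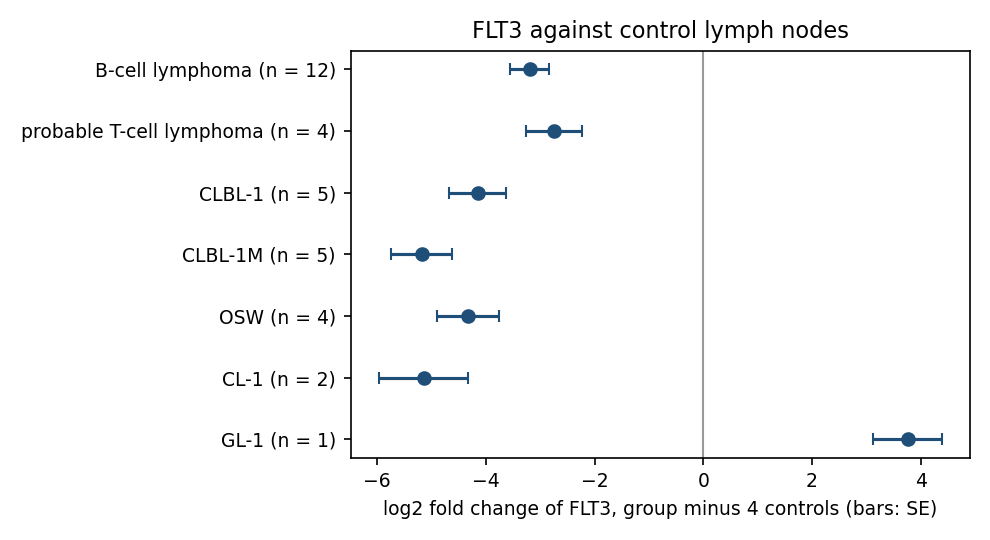
Log2 fold-change of FLT3 in each group relative to the 4 controls from the edgeR fit of 15162 genes, with bars for the standard error. GL-1 lies at 3.76, and the 6 other groups lie between -5.18 and -2.74.

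Contrasts between groups other than GL-1 and the controls were not used in singling out FLT3 and were tested with edgeR's quasi-likelihood test, adjusted by the Benjamini-Hochberg method over all genes of each of 9 contrasts. FLT3 passed the study's threshold of 1e-05 in 0 of the 9 by edgeR and in 1 by DESeq2, while 5 had an unadjusted p below 0.05 in edgeR and 4 an adjusted p below 0.05. The mean over the lymphoma groups (16 samples) lay above the mean over the 4 low lines (16 samples), by 1.73 on the log2 scale (standard error 0.330). The edgeR adjusted p of 3.2e-05 missed the threshold of 1e-05 and passed 0.05. DESeq2's Wald test gave 1.77 with an adjusted p of 1.32e-06, past both. Each group had the same weight whatever its size. The line samples are repeats of 4 lines, with CLBL-1M derived from CLBL-1, so these p-values do not measure the spread between lines. In this contrast 23.1% of all genes passed 1e-05 and 64.8% passed 0.05, so that FLT3 was one of a large share of genes. Of the lymphomas, 9 of 16 lay above every sample of the 4 lines and 1 lay below all of them. Lymphomas and lines fell on different sides of the inferred batch, with no control in this contrast, so batch and group cannot be told apart.

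Between single groups, FLT3 was higher in B-cell lymphomas than in CLBL-1M by 1.99 on the log2 scale (standard error 0.511, edgeR adjusted p = 0.00152). With the names of CLBL-1 and CLBL-1M exchanged, this difference was 0.95 and missed 0.05 (edgeR adjusted p = 0.0736). FLT3 was higher in probable T-cell lymphomas than in OSW by 1.58 (standard error 0.573, edgeR adjusted p = 0.0269) and than in CL-1 by 2.40 (standard error 0.786, edgeR adjusted p = 0.0136). All 4 probable T-cell lymphomas lay above every sample of either T-cell line. These 3 differences passed 0.05, as did 55.1%, 40.5% and 45.0% of all genes in the respective contrasts, while 11.6%, 3.55% and 4.68% passed 1e-05. The difference from OSW missed 0.05 when OSW replicate 1 (edgeR adjusted p = 0.102), OSW replicate 3 (0.0642), intestinal lymphoma replicate 3 (0.0557) or the T-cell lymphoma (0.0575) was left out. The difference from CL-1 missed it without CL-1 replicate 1 (edgeR adjusted p = 0.124) or replicate 2 (0.0617). Batch and group cannot be told apart here either.

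FLT3 did not differ past 0.05 in the other contrasts. B-cell lymphomas exceeded CLBL-1 by 0.95 on the log2 scale (95% interval 0.03 to 1.88, edgeR adjusted p = 0.0736), where 11.4% of all genes passed 1e-05. Without CLBL-1 replicate 5, the CLBL-1 sample with most FLT3 reads, the difference was 1.31 (edgeR adjusted p = 0.0355), and with the names of CLBL-1 and CLBL-1M exchanged it was 1.99 (edgeR adjusted p = 0.00152). Probable T-cell lymphomas differed from B-cell lymphomas by 0.45 (95% interval -0.41 to 1.32, edgeR adjusted p = 0.450), where 4.17% of all genes passed 1e-05 and 30.9% passed 0.05. CLBL-1M differed from CLBL-1 by -1.03 (95% interval -2.27 to 0.20, edgeR adjusted p = 1). In that contrast edgeR called 0 genes (0%) at 1e-05 and at 0.05 and 201 at an unadjusted p below 0.05, and DESeq2 called 4 at 1e-05. OSW differed from CL-1 by 0.82 (95% interval -0.84 to 2.48, edgeR adjusted p = 0.498), where 4.08% of all genes passed 1e-05 and 30.8% passed 0.05. The CLBL lines differed from the T-cell lines by 0.07 (95% interval -0.998 to 1.14, edgeR adjusted p = 1), where 11.3% of all genes passed 1e-05 and 41.1% passed 0.05. Each of these intervals includes a difference of more than 2-fold in at least 1 direction.

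Among the 15162 genes, 277 had a higher log2 fold-change than FLT3 in GL-1. Lower values than that of FLT3 were found for 991 genes in B-cell and 1258 in probable T-cell lymphomas. In the low lines such genes numbered 1740 (OSW), 1970 (CLBL-1M), 2055 (CL-1) and 2402 (CLBL-1). FLT3 thus stood nearer to the upper end of GL-1 than to the lower end of any other group. The comparisons share their controls, so the values are given side by side and no relation between them is drawn.

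**Figure D3:**
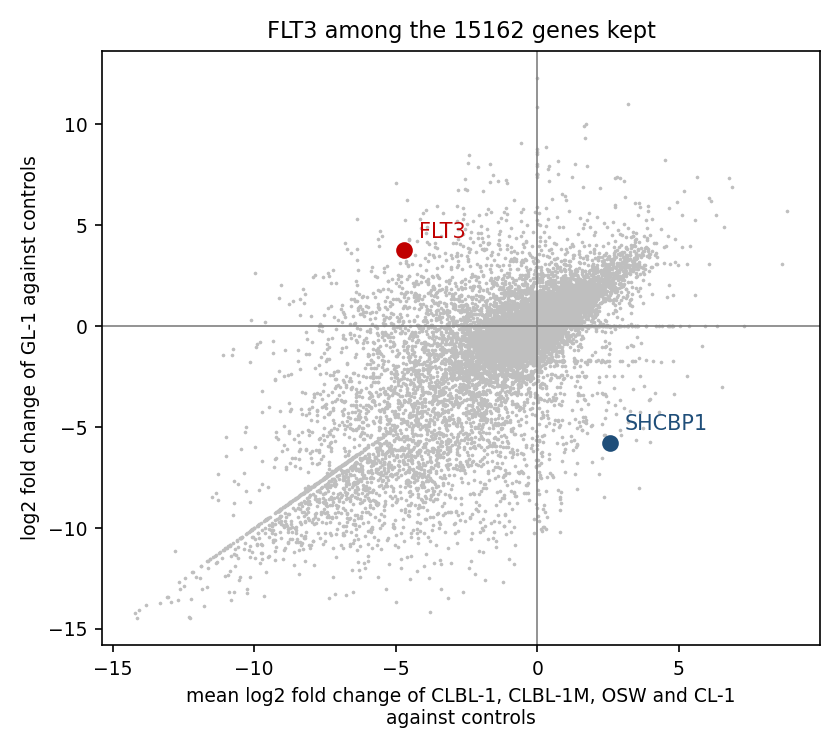
Log2 fold-change relative to controls of each of 15162 genes in GL-1 (vertical) and as the mean of OSW, CL-1, CLBL-1 and CLBL-1M (horizontal). The axes share the same 4 controls. FLT3 (3.76 in GL-1, -4.70 in the other lines) and SHCBP1 (-5.76 and 2.58) are marked and lie in opposite corners.

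SHCBP1 (ENSCAFG00000003704), an adaptor-binding protein linked to cell division that the study named together with FLT3, had the opposite pattern. It stood at 0.313 CPM in GL-1, from 1 read, at 11.2 to 28.4 CPM in the controls and at 39.1 to 195 CPM in all 32 other samples.

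Genes with the pattern of FLT3 were counted by the order of the samples alone. In GL-1, 35.4% of the 15162 genes lay above all 4 controls. In all 32 lymphoma and other line samples together, 3.86% of genes lay below every control. FLT3 and 20 other genes, or 0.139%, did both. Of the 20, 3 had a larger ratio of GL-1 to the control mean than the 13.6 of FLT3, and the median ratio was 3.32 (range 1.32 to 56.3). Without control replicate 1 the number of such genes was 35 in place of 21, and under another scaling or filter, or without any other 1 of the 24 samples left out in turn, it stayed within 1.5 times of 21. No B-cell lymphoma was left out.

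**Figure D4:**
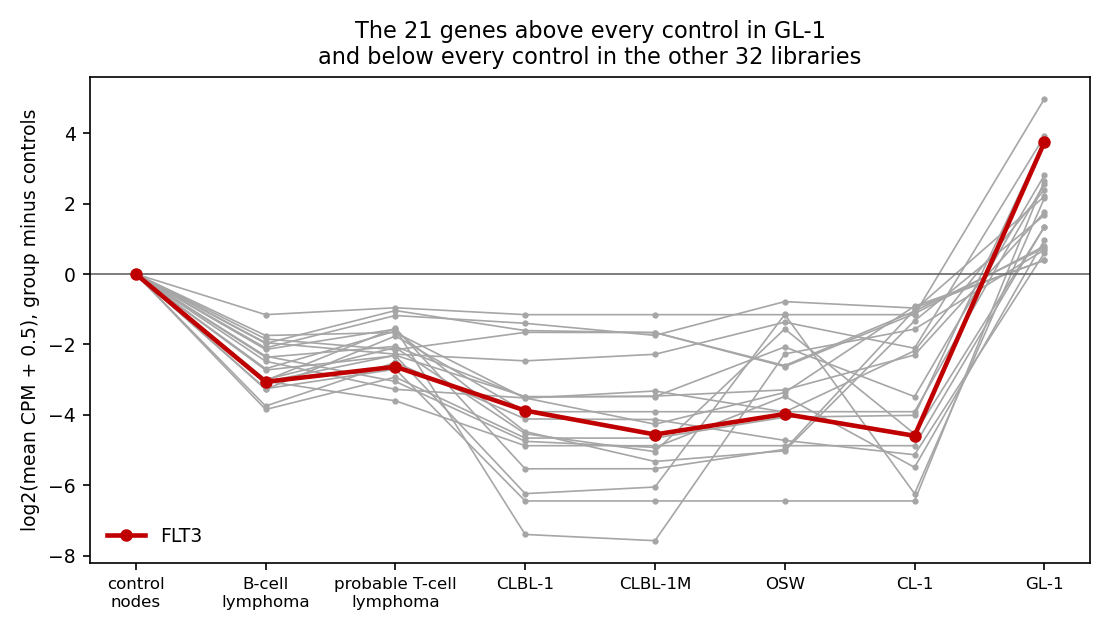
Mean CPM of each group relative to the controls, as the difference of log2(mean CPM + 0.5), for FLT3 (red) and the 20 other genes (grey) that lay above every control in GL-1 and below every control in the 32 other samples. The genes were chosen for this shape, and 3 of the 20 have a larger ratio of GL-1 to controls than FLT3.

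A rule on size asked that GL-1 reach at least the lowest control and that all 16 samples of the other lines stay at or below 1/8 of the lowest value among GL-1 and the controls. This rule was met by 180 genes (1.19%), but 134 of them had fewer than 3 reads in GL-1 or in a control and met it through values near 0. The other 46 genes (0.303%), FLT3 among them, had at least 3 reads in GL-1 and in every control. Of the 46, 16 had no read in any of the 16 other line samples, whereas FLT3 had between 1 and 10 reads in each. The rule keeps these lines low, so that count follows in part from the rule. GL-1 lay above every control in 26 of the 46, beside 35.4% of all genes, and the rule itself favors a high GL-1. In 8 of the 46 every lymphoma lay below the lowest control, a count for which no share of all genes is given. The rule and the order of samples above were both met by 5 genes, FLT3 included.

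Likeness to FLT3 was measured as Pearson's r over the 37 samples on log2 CPM with a prior count of 2. It is a description, since all points share their libraries and GL-1 and the controls set most of the range. The median r of the 15161 other genes was 0.05, and 28 genes had an r of at least 0.8. The 15 most alike had an r of 0.837 to 0.895 and a Spearman's rho of 0.544 to 0.793. Without GL-1 their r was 0.733 to 0.851, and without the controls 0.758 to 0.851. The 15 were picked for a high r over all 37 samples, and each omission leaves the other high group in. Without GL-1, 78 of the 15161 other genes had a larger r than the second highest of the 15. GL-1 lay above every control in 14 of the 15, beside 35.4% of all genes. The choice by r favors this, because FLT3 is highest in GL-1. With a prior count of 0.5, 10 of the 15 stayed among the first 15, and by Spearman's rho 1 did.

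The gene most like FLT3 was ENSCAFG00000011755 (r = 0.895), with 44.2 CPM in GL-1, 4.49 to 8.99 CPM in the controls, at most 4.23 CPM in any lymphoma and no read in the 16 samples of the other lines. ENSCAFG00000002163 followed (r = 0.889), with 172 CPM in GL-1, 7.93 to 23.4 CPM in the controls, at most 2.82 CPM in any lymphoma and at most 0.565 CPM in the other lines. GL-1 exceeded the control mean 6.30 times for the first gene and 14.2 times for the second. Both had the order of samples of FLT3, but unlike FLT3 they were without any read in most samples of the low lines. The other 13 are not described singly. Neither they nor the genes just described are paired with a symbol here.

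FLT3 stands in 6 functional terms of the study's enrichment tables, which show part of the identifiers in each term. The 115 other genes readable there were picked by the study for differing from controls in at least 1 of these groups, so their counts are no independent evidence of a direction and say nothing of complete pathways. All 115 passed the filter on low counts. In B-cell lymphomas, 1 was higher and 23 were lower at an edgeR adjusted p of at most 1e-05, against 2.38% and 3.15% of all genes. In probable T-cell lymphomas, 2 were higher and 8 lower, against 1.33% and 0.587% of all genes. In CLBL-1, 4 were higher and 52 lower (6.91% and 9.73% of all genes), and in CLBL-1M 4 were higher and 55 lower (6.82% and 9.95%). In OSW, 5 were higher and 35 lower (5.61% and 6.72%), and in CL-1 8 were higher and 28 lower (4.54% and 4.23%). In GL-1, where a gene was counted when its level lay outside the control range by a log2 fold-change of 2 or more, with no test, 6 were higher and 61 lower, against 7.37% and 19.8% of all genes. Most listed genes that were counted in GL-1 lay on the opposite side from FLT3, which was itself singled out for being higher there. The total of 24 called in B-cell lymphomas was 7 without control replicate 2, 15 without replicate 3 and 14 without replicate 4, and the total of 36 in CL-1 was 4 without either CL-1 sample. The total of 10 in probable T-cell lymphomas was 6 without control replicate 1, 2 or 4 or intestinal lymphoma replicate 1 or 3. For these fits with samples left out, shares of all genes are not given.

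Among these terms, receptor tyrosine kinase signaling is the class of pathway to which FLT3 itself belongs. Of its 25 readable members, 2 were higher and 10 lower in GL-1, with a median log2 fold-change of -1.20 beside -0.08 over all genes, of which 19.8% were lower. In CLBL-1 and in CLBL-1M, none was higher and 14 were lower, against 9.73% and 9.95% of all genes, with medians of -5.68 and -5.89 beside -0.19 and -0.16 over all genes. In OSW 7 were lower and none higher, against 6.72% of all genes lower, and in CL-1 6 were lower and 3 higher, against 4.23% and 4.54%. In the B-cell lymphomas 5 of the 25 were lower, against 3.15% of all genes, with a median of -1.49 beside 0.01. In the probable T-cell lymphomas 3 were lower and 1 higher, against 0.587% and 1.33% of all genes, with a median of -0.48 beside 0.09. In the term of protein tyrosine kinase activity, 3 of 24 members were higher and 14 lower in GL-1, against 7.37% and 19.8% of all genes. In CLBL-1 3 were higher and 16 lower, against 6.91% and 9.73%. In CLBL-1M 2 were higher and 17 lower, against 6.82% and 9.95%. Fewer were lower elsewhere, with 3 higher and 8 lower in OSW (5.61% and 6.72%). In CL-1 1 was higher and 3 were lower (4.54% and 4.23%). The B-cell lymphomas had 0 higher and 6 lower (2.38% and 3.15%), and the probable T-cell lymphomas 1 and 1 (1.33% and 0.587%).

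The term of hematopoietic cell lineage gathers surface molecules that mark stages of blood cell formation. Of its 24 readable members, 1 was higher and 15 were lower in GL-1, with a median log2 fold-change of -2.52, against 7.37% and 19.8% of all genes. In CLBL-1, CLBL-1M and CL-1, 10 of them were lower and none higher, with medians of -4.05, -3.35 and -6.27, where 9.73%, 9.95% and 4.23% of all genes were lower and the median over all genes was -0.19, -0.16 and -0.23. Without either CL-1 sample, 4 of all 115 listed genes were called in CL-1 in place of 36. In the B-cell lymphomas 6 were lower (3.15% of all genes), with a median of -1.80, and in the probable T-cell lymphomas 2 (0.587%), with a median of -0.83. In OSW 9 were lower (6.72%) and 1 was higher (5.61%). In GL-1, FLT3 lay on the opposite side from most counted members of this term. FLT3 and these members were both picked on these same samples, so this is a description only.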

How the data were processed

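Poly-A RNA had been sequenced as 100-bp paired-end reads. BWA had been used for mapping to CanFam3.1, and duplicates and poor mappings had been discarded by Picard and SAMtools before HTSeq 0.6.1 counted reads on the genes of Ensembl release 85. The authors deposited these raw counts without scaling. Whether reads or read pairs were counted and whether strand was used are not given in the sources used here. Reads outside genes (68.0 to 82.9% of those in the files) and on more than 1 gene were left out of library sizes and tests.

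Samples were grouped by title, not by the classification entry of the labels. Of 32704 genes, 25270 had at least 1 count, and 15162 with a highest CPM above the 40th percentile of these were kept. In R 4.3.3, edgeR 4.0.16 with TMM factors fitted 8 groups over the 37 samples and gave quasi-likelihood tests with Benjamini-Hochberg adjustment. Standard errors were derived from F. DESeq2 1.42.0, RLE factors, other filters, a replicate block, fits of 1 group and controls, exchanged line names, a threshold of 0.05 and leaving out in turn each of 24 samples (all but GL-1 and the B-cell lymphomas) were alternatives. The procedure was run on simulated counts with the same dispersion for every gene and changes placed in well-counted genes. No change was placed in GL-1, and the run is not used as support here. No replicate pair agreed within sampling noise, the closest being a pair of CLBL-1 samples (chi-square per degree of freedom 1.32). Nothing says that the samples of a line came from separate cultures, so p-values for lines measure the spread between these samples, which may be technical.

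FLT3 and all lists were chosen with earlier results of these data known. Genes named beside FLT3 and SHCBP1 are the first 2 of the 15 with the highest r to FLT3. None of the 32704 identifiers matched the reference table (assembly UU_Cfam_GSD_1.0), so the symbol lists for the FLT3 pathway, cell type markers and neighboring genes (PAN3 and FLT1 on one side, URAD and CDX2 on the other) were not analysed here. The readable term members, the minimum of 3 counts, the order of samples, the correlation without GL-1 or controls and the inferred batches were added after seeing the data.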

Additional observations from a re-analysis of the deposited data

Results flagged for a closer look

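FLT3 moved in opposite directions under the same contrast. GL-1 lay above every control, with a log2 fold-change of 3.76, and every sample of the 6 other groups lay below every control. The difference between GL-1 and the other groups was not tested, since GL-1 is a single sample and the gene was singled out for this pattern. In the groups of 4 or 5 samples, no FLT3 level stood apart from its group by Dixon's criterion.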

How the results depend on the processing

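The log2 fold-change of FLT3 against controls kept its direction in all 7 groups under all 32 alternatives. FLT3 was singled out for these directions and every sample lay outside the control range, so the alternatives could hardly have reversed them. With CLBL-1 and CLBL-1M exchanged it was -5.18 for CLBL-1 and -4.15 for CLBL-1M, and leaving out single samples moved CL-1 between -5.63 and -4.80. The median of GL-1 was 496 CPM without normalization factors and per reads on all genes. Lymphomas against the 4 lines passed 1e-05 with DESeq2 (1.77). At 0.05 the differences of 1.73 (lymphomas against the 4 lines), 1.99 (B-cell lymphomas against CLBL-1M), 1.58 (probable T-cell lymphomas against OSW) and 2.40 (against CL-1) passed, but with CLBL-1 and CLBL-1M exchanged the CLBL-1M difference was 0.955 and missed 0.05 (edgeR adjusted p = 0.0736). CLBL-1M against CLBL-1 became 1.03 with exchanged names. The difference between CLBL and T-cell lines changed sign with filterByExpr (-0.00124) and ranged from -0.109 to 0.309 with samples left out, negative without CL-1 replicate 1, CLBL-1M replicate 1 or 2, CLBL-1 replicate 5 or OSW replicate 1.

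The replicate numbers were not taken to pair samples, since deviations of same-numbered samples from their group means correlated by -0.00977 on average (76 pairs). With the replicate number as a block, the log2 fold-change of FLT3 was 3.77 in GL-1 and -3.25 in B-cell lymphomas, and no FLT3 call changed. With this block, 0, 3, 34 and 36 listed term members were called by edgeR in B-cell lymphomas, probable T-cell lymphomas, CLBL-1 and CLBL-1M. The shares of all genes called with the block are not given, so these counts show only how far calls depend on the setting.

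Shares of all genes called against controls are not given for the alternative settings. The counts of listed members under them thus show only how far calls depend on the setting. Listed term members called with DESeq2 numbered 40 in B-cell lymphomas, 23 in probable T-cell lymphomas and 70 in CL-1. With only the group and the controls in the fit, edgeR called 12, 0 and 4, and within inferred batches 2, 1 and 55. At 0.05 edgeR called 72 in B-cell and 61 in probable T-cell lymphomas, 95 (OSW) and 97 (CL-1) in the T-cell lines, and 96 (CLBL-1) and 94 (CLBL-1M) in the related B-cell lines. At an unadjusted p below 0.05, 69 of the 115 passed under the block in B-cell lymphomas and 58 in the fit of probable T-cell lymphomas and controls alone. With 1 of the 24 samples left out, 7 to 32 were called in B-cell lymphomas, 6 to 9 in probable T-cell lymphomas and 4 to 40 in CL-1. Without a filter on low counts 2769 genes met the rule on size. With a limit of 1/4, 77 genes with at least 3 counts met it. Genes with the order of samples of FLT3 numbered 21 to 35 with samples left out. The cause of these changes was not tested. Correlations of FLT3 with marker levels in B-cell lymphomas and counts over the symbol lists could not be run without matched identifiers. Counts of 1 to 10 reads per sample limit what the low lines can show.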
